A study of Felis catus with 36 samples.

Results

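Sham-operated cats gave 8 skeletal muscle libraries, 5 sampled at 4 months and 3 sampled at 1 month, out of 36 RNA-seq libraries in the series. They were taken by their titles, as the count files of skeletal muscle labelled SHAM at 4 months and SHAM at 1 month. The labels call these animals controls, sham-operated where the other cats had the aorta banded to bring on heart failure of the kind in which ejection fraction is preserved. The other libraries used for comparison were 10 of banded muscle, 5 at 4 months and 5 at 1 month, and 8 of sham left ventricle, 5 at 4 months and 3 at 1 month. The 10 banded left ventricle libraries served only to sort genes by tissue. No strain, sex, age or muscle is named in the labels, nor whether the months count from the operation. They do not say that libraries come from separate animals, so p-values measure the spread between these samples only.

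Skeletal muscle grows after birth mainly by enlargement of existing fibres, to which satellite cells, the resident stem cells of muscle, add nuclei. Over the same period developmental forms of the contractile proteins give way to adult fast and slow forms, and metabolic enzymes settle into the pattern of each fibre type. Changes of this kind without pressure overload are what a comparison of 4 months with 1 month in sham muscle can show. The files name genes by Ensembl identifier and pair none with a symbol, and the reference table of 39307 cat genes held 0 of these identifiers. The 26681 identifiers are therefore described by their level, their tissue pattern and their behaviour in other libraries, and the tissue could not be checked against marker genes. The 4 identifiers printed have the largest changes that met a fixed rule, which is given with their values.

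Libraries at 4 months held 26787278 to 34946820 gene counts (median 29122989), and those at 1 month 21544416 to 27222178 (median 26637593). The share assigned to a gene was 70.6% to 74.3% at 4 months. At 1 month it was 56.3% in library 1, 70.3% in library 2 and 71.7% in library 3. The 10 most abundant genes took 26.1% to 29.7% of gene counts at 4 months and 27.6% to 34.4% at 1 month. Library 5 of 4 months had the deepest sequencing and the most genes with a count, 16201, against 15333 to 15517 in the other 4-month libraries and 15625 to 15852 at 1 month. No pair among the 13 pairs of libraries of the same group held identical counts, and the closest pair differed by 56.5 in chi-square per degree of freedom.

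Muscle of 4 months and of 1 month stood apart along the first principal component of log2 CPM (counts scaled by library size), which held 49.9% of the variance among the 8 sham libraries. Scores at 4 months were 48.5, 32.1, 45.8, 42.5 and 4.72 in libraries 1 to 5, and scores at 1 month were -51.1, -55.4 and -67.1 in libraries 1 to 3. The groups did not overlap, and 4-month library 5 lay nearest to the 1-month libraries. A second measure placed each sham library with genes called on the banded time contrast and a scale set by the banded means. For the 5746 genes called between 4 months and 1 month in banded animals (42.6% of those tested), 0 was set at the mean of banded muscle at 1 month and 1 at its mean at 4 months. Sham libraries 1 to 5 of 4 months lay at 0.972, 0.769, 0.959, 1.01 and 0.690 on this scale. Sham libraries 1 to 3 of 1 month lay at 0.110, 0.174 and 0.178. Libraries 2 and 5 of 4 months thus lay below the other 4-month libraries, and all 3 sham libraries of 1 month lay slightly above 0. The genes were called, and the scale was set, on the same banded libraries, a choice that favours positions between 0 and 1 for other libraries. The offset of sham from the banded means is therefore not read as a trait of sham muscle. Library 5 was low mainly in genes that fell in banded muscle, where its position was 0.629, and stood at 0.877 in genes that rose there. For library 2 the positions were 0.774 and 0.751.

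**Figure D1:**
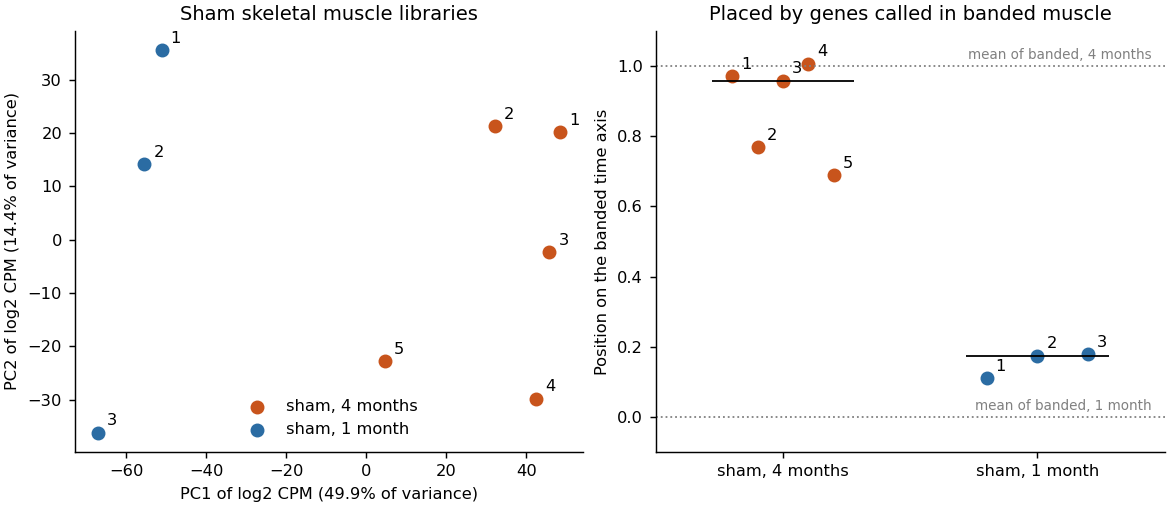
Left, scores of the 8 sham muscle libraries on the first and second principal components of log2 CPM, numbered by library. Right, position of each library on the axis from banded muscle at 1 month (0) to banded muscle at 4 months (1), with bars at the group medians; the 4-month libraries lie from 0.690 to 1.01 and the 1-month libraries from 0.110 to 0.178.

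The muscle of sham animals differed between 4 months and 1 month in 3404 of the 13480 genes tested, or 25.3%. At 4 months 1488 genes had risen (11.0% of those tested) and 1916 had fallen (14.2%), at an adjusted p under 0.05 with edgeR's quasi-likelihood test and Benjamini-Hochberg adjustment. The excess of falls in number was not stable, with 1702 higher and 1718 lower under relative log expression (RLE) scaling, 2034 and 1958 with DESeq2, and 1564 and 1444 with no low-count filter. Called falls were larger than called rises. The median size of a called fall was 1.11 on the log2 scale (2.16-fold), and that of a called rise was 0.77 (1.70-fold), against 0.40 over all genes tested regardless of direction. Of the genes that fell, 1088 changed at least 2-fold (56.8%), whereas 458 of those that rose did (30.8%). At the far end the order turned, with 80 rises and 58 falls of at least 8-fold. Fallen genes were lower in level, where a call needs a larger change. By mean CPM in banded muscle, 265 of 273 called falls and 86 of 88 called rises under 1 CPM were at least 2-fold. At 1 to 10 CPM these were 586 of 942 falls and 169 of 304 rises. At 10 to 100 CPM they were 212 of 630 falls and 168 of 858 rises. In whole muscle, fewer cells of a type and less RNA per cell cannot be told apart, and since no batch or date is labelled, neither can time and a possible batch.

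Risen and fallen genes also differed in level and in spread. The median gene that rose averaged 26.1 CPM over the 8 libraries and the median gene that fell 5.20 CPM, beside 9.31 CPM for all genes tested; these levels are not per length. Together the 1488 risen genes made up 13.2% of gene counts at 4 months (SD 0.484, n = 5) and 7.80% at 1 month (SD 1.06, n = 3). The 1916 fallen genes made up 3.84% at 4 months (SD 0.310, n = 5) and 8.22% at 1 month (SD 1.22, n = 3). These sums describe genes chosen for that change. Within groups, the median SD of log2 CPM in risen genes was 0.213 at 4 months and 0.203 at 1 month. In fallen genes it was 0.362 at 4 months and 0.264 at 1 month. Over all genes tested it was 0.278 at 4 months, or 0.254 without library 5, and 0.246 at 1 month. These groups hold 5 and 3 libraries, so the times are not compared, and the part of level in the spreads was not tested. Library 5 was the highest of the 4-month libraries in 886 of the fallen genes (46.2%), and in 24.8% of the genes not called. Library 2 was the lowest of them in 525 of the risen genes (35.3%), and in 20.5% of those not called.

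**Figure D2:**
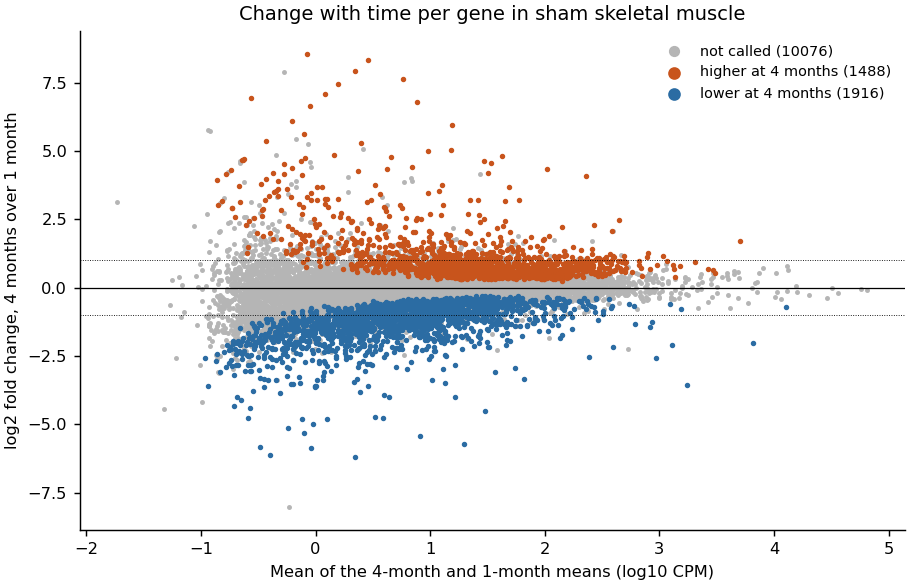
Log2 fold change of 4 months over 1 month in sham muscle (vertical) against the mean of the group means in CPM (log10 scale, horizontal), 1 point per gene tested. The 1488 genes called higher lie mostly at middle and high levels and the 1916 called lower reach down to low levels; dotted lines mark 2-fold changes.

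The number of genes called was lowest when a 1-month library was left out. Leaving out 1-month library 2 left 2199 genes (912 higher, 1287 lower) and leaving out 1-month library 3 left 2021 (885 higher, 1136 lower). Without 1-month library 1, the library with the low share of assigned reads, 1257 were higher and 1224 lower. Without banded 1-month library 1, which shares in the scaling and in the estimate of spread, 1883 were higher and 1836 lower. The median sham change over all genes tested was then -0.007, against -0.05 in the main fit. Without 4-month library 5 the count was 3630, with 1515 higher and 2115 lower. A core of 1394 genes, 655 higher and 739 lower, was called whichever of the 8 libraries was left out. Values of the 5 libraries of 4 months all lay above those of 1 month in 1863 genes (13.8% of those tested) and all below them in 2267 (16.8%). Of the called genes, 1292 of the 1488 risen and 1615 of the 1916 fallen had such groups without overlap.

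The authors' deposited table for this comparison differed from the deposited counts in 1 library. It lists 13368 genes, of which 1046 have an adjusted p under 0.05, 745 higher and 301 lower at 4 months. For those genes DESeq2 called 3981 on the deposited counts, 2036 higher and 1945 lower. When the authors' deposited mean normalized counts were fitted as a weighted sum of the 18 muscle libraries, sham 4-month library 1 had a weight of 0 and sham 1-month library 1 a weight of 1.99. The other 16 had weights from 0.992 to 0.998. When 4-month library 1 was replaced by a second copy of sham 1-month library 1, DESeq2 called 1046 genes, 745 higher and 301 lower, and log2 fold changes correlated at 0.9998 with the authors' deposited table across genes. edgeR with the same replacement called 0 genes, and 3148 had an unadjusted p below 0.05. The deposited 4-month library 1 scored 48.5 on the first principal component, the highest of its group. Without that library edgeR called 2723 genes, 1214 higher and 1509 lower. Of the genes in the authors' deposited table, 740 of the 745 higher and 298 of the 301 lower ones were also called in that direction by edgeR on the deposited counts.

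The identifiers with the largest changes were taken among called genes with a mean of at least 10 CPM over the 8 sham libraries and no overlap between the groups, a rule met by 992 risen and 529 fallen genes. The rule used sham values only, so it favours larger changes and cleaner groups in sham than in banded muscle. ENSFCAG00000027677 had the largest rise. It stood at 11.5, 100.5, 14.6, 22.4 and 3.32 CPM in libraries 1 to 5 of 4 months, against 0.584, 0.426 and 0.438 CPM in libraries 1 to 3 of 1 month. All 5 libraries of 4 months lay above all of 1 month, with library 2 far above the others and library 5 lowest. In edgeR this was a rise of 5.97 on the log2 scale (SE 1.33), with an adjusted p of 0.00451. Without 4-month library 2 it was 4.73 (adjusted p 0.00646), and limma voom, which works on log values, gave 5.02 with an adjusted p of 0.0676.

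In banded muscle ENSFCAG00000027677 stood at 15.5, 3.19, 1.48, 0.0846 and 2.35 CPM in libraries 1 to 5 of 4 months, against 1.54, 1.15, 2.05, 1.03 and 2.07 CPM at 1 month. These groups overlapped, and the time effect of 1.53 (SE 0.874) did not pass, with an adjusted p of 0.166 from edgeR. The difference between the sham and the banded time effect was 4.44 (SE 1.5), with an unadjusted p of 0.0084 in edgeR and an adjusted p of 0.335. In left ventricle of sham animals the gene stood at 44.3, 85.4, 69.1, 18.4 and 54.9 CPM at 4 months, against 1.46, 1.20 and 0.671 CPM at 1 month, on a scaling of all 36 libraries. Its time effects in the tissues, 6.04 in muscle and 5.60 in left ventricle in that fit, differed by 0.45 (SE 1.36, adjusted p 0.886 with edgeR).

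ENSFCAG00000000494 had the next largest rise. It stood at 13.1, 30.1, 57.5, 32.1 and 14.1 CPM in libraries 1 to 5 of 4 months, against 1.17, 0.658 and 0.836 CPM in libraries 1 to 3 of 1 month. The groups were far apart, with the lowest 4-month library over 10 CPM and the highest 1-month library under 2 CPM. On the log2 scale the rise was 5.05 (SE 1.05), with an adjusted p of 0.00294 from edgeR. In banded muscle the gene also rose, by 2.51 (SE 0.731, adjusted p 0.0109 with edgeR), at 44.6, 3.46, 3.04, 3.72 and 12.5 CPM in libraries 1 to 5 of 4 months, against 1.35, 1.22, 6.0, 0.964 and 2.22 CPM at 1 month. Banded library 3 of 1 month overlapped the lower 4-month values. In left ventricle of sham animals ENSFCAG00000000494 stood at 33.2 to 241.0 CPM at 4 months (median 192.8) and at 3.66 to 4.24 CPM at 1 month (median 4.12). Its time effect in muscle minus that in left ventricle was -0.22 (SE 1.32, adjusted p 0.95 with edgeR).

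ENSFCAG00000019190 had the largest fall. It stood at 4.30, 2.72, 1.03, 1.78 and 2.71 CPM in libraries 1 to 5 of 4 months, against 19.2, 61.2 and 92.0 CPM in libraries 1 to 3 of 1 month. The 4-month libraries ran from 1.03 to 4.30 CPM and were all below the 1-month libraries, of which library 1 was lowest. The gene was 22.9-fold lower at 4 months, or -4.52 on the log2 scale (SE 0.774), with an adjusted p of 0.000993 from edgeR. In banded muscle ENSFCAG00000019190 stood at 3.30, 0.638, 1.77, 1.52 and 0.649 CPM at 4 months, against 8.18, 35.4, 69.8, 27.8 and 193.6 CPM at 1 month, also without overlap. In edgeR the banded change was -5.40 on the log2 scale (SE 0.778), with an adjusted p of 8.68e-05. In left ventricle of sham animals the gene stood at 11.4 to 79.7 CPM at 4 months (median 16.6) and at 54.0 to 84.3 CPM at 1 month (median 68.1), and the time effect in muscle minus that in left ventricle was -3.20 (SE 1.04, adjusted p 0.0508 with edgeR).

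ENSFCAG00000015298 had the next largest fall. It stood at 0.514, 1.19, 0.885, 1.48 and 5.36 CPM in libraries 1 to 5 of 4 months, against 12.6, 35.3 and 44.4 CPM in libraries 1 to 3 of 1 month. Library 5 was the highest at 4 months and still below every 1-month library. The gene was 15.9-fold lower at 4 months, or -3.99 on the log2 scale (SE 0.984), with an adjusted p of 0.00806 from edgeR. In banded muscle ENSFCAG00000015298 stood at 16.1, 1.38, 2.28, 0.761 and 2.27 CPM at 4 months, against 10.7, 11.9, 107.8, 22.6 and 114.7 CPM at 1 month, where library 1 of 4 months overlapped the lower 1-month values. The fall in banded muscle was -3.54 on the log2 scale (SE 0.897, adjusted p 0.00453 with edgeR). In left ventricle of sham animals it stood at 3.17 to 10.7 CPM at 4 months (median 7.53) and at 16.3 to 37.4 CPM at 1 month (median 18.7), and the tissues did not differ past the threshold (-2.05, SE 1.15, adjusted p 0.283 with edgeR). In the authors' deposited table, 3 of the 4 identifiers have an adjusted p under 0.05, and ENSFCAG00000015298 has 0.0715.

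**Figure D3:**
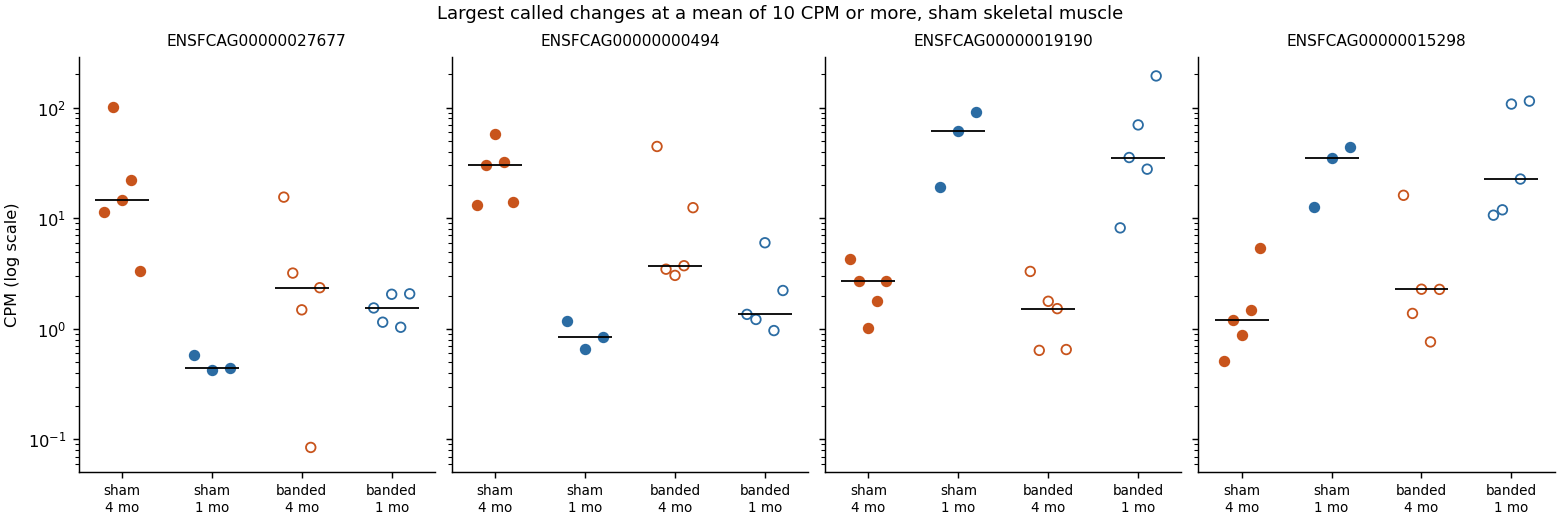
CPM per library (log scale) of the 4 identifiers in muscle, with sham at 4 months, sham at 1 month, banded at 4 months and banded at 1 month from left to right, and bars at the medians. Sham groups do not overlap in any panel, as the rule of choice required. Banded groups, under no such rule, overlap for ENSFCAG00000027677, ENSFCAG00000000494 and ENSFCAG00000015298.

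Genes were then sorted by how abundant they are in muscle, using only the 10 banded muscle libraries. Falls outnumbered rises among genes under 10 CPM, and rises outnumbered falls above it, beside 11.0% higher and 14.2% lower among all genes tested. Among 4908 genes with a mean of 1 to 10 CPM, 942 fell (19.2%) and 304 rose (6.19%). Under 1 CPM, 273 of 1927 genes fell (14.2%), the share over all genes tested, and 88 rose (4.57%). A filter at a mean of 1 CPM over all 18 muscle libraries left 40 genes of that class, of which 10 rose and 4 fell. Such genes passed only through higher levels in sham than in banded muscle. As 5 of the 8 sham libraries are of 4 months, this favours rises, so the turn is not read as a result. Of 5522 genes at 10 to 100 CPM, 858 rose (15.5%) and 630 fell (11.4%). Of 1032 genes at 100 to 1000 CPM, 227 rose (22.0%) and 65 fell (6.30%). Median changes over all genes of these classes, called or not, were -0.41 under 1 CPM, -0.21 at 1 to 10 CPM, 0.07 at 10 to 100 CPM and 0.19 at 100 to 1000 CPM, beside -0.05 over all genes tested. The 91 genes at 1000 CPM or more held 53.5% to 56.7% of gene counts at 4 months and 54.0% to 58.7% at 1 month, and 11 of them rose and 6 fell. Without 1-month library 2 this last class held 3 of each. A call needs a larger change in a low-level gene, so shares called are compared here within a class, between directions.

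The same was done by tissue, with the ratio of mean CPM in banded muscle to that in banded left ventricle. These levels do not set the sham fold changes, but the banded muscle libraries share in the scaling and in the estimate of spread behind the sham calls. Genes at moderately higher level in the heart than in muscle had more falls than rises in sham muscle. Of 4621 genes at 2- to 8-fold higher level in left ventricle, 1009 fell (21.8%) and 243 rose (5.26%), with a median change of -0.26. Genes at higher level in muscle had more rises than falls. Of 855 genes at 2- to 8-fold higher level in muscle, 173 rose (20.2%) and 82 fell (9.59%), with a median change of 0.24. Among the 335 genes at 8-fold or more higher level in muscle, the most muscle-restricted of those tested, 55 rose (16.4%) and 38 fell (11.3%). That order turned without 1-month library 1. The 480 genes at 8-fold or more higher level in left ventricle had 48 rises and 65 falls (13.5%), close to the 11.0% higher and 14.2% lower among all genes tested. Of 7189 genes within 2-fold between the tissues, 969 rose (13.5%) and 722 fell.

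Level and tissue are linked, since a gene at higher level in the heart is often low in muscle, so both were used together. At 10 to 100 CPM, genes over 2-fold higher in left ventricle had 327 falls (21.1%) and 122 rises (7.89%) among 1547. At that same level, genes over 2-fold higher in muscle had 34 falls (8.40%) and 93 rises (23.0%) among 405. At 1 to 10 CPM, 572 of 2350 genes higher in left ventricle fell (24.3%) and 107 rose (4.55%), against 48 falls (15.4%) and 42 rises (13.5%) among 312 genes higher in muscle. Genes higher in left ventricle had more falls than rises at both these levels. Genes higher in muscle had more rises than falls at 10 to 100 CPM but not at 1 to 10 CPM. At 100 to 1000 CPM, 204 genes higher in left ventricle had 26 falls and 18 rises. Their median change in sham muscle was positive, at 0.08. At that level 236 genes higher in muscle had 9 falls and 69 rises. Under 1 CPM, 988 genes higher in left ventricle had 148 falls and 43 rises, and 188 genes higher in muscle had 27 falls and 20 rises. At 10 to 100 CPM the median change of genes higher in left ventricle was -0.12 in sham muscle and -0.14 in banded muscle, and that of genes higher in muscle was 0.29 in sham muscle and 0.50 in banded muscle.

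**Figure D4:**
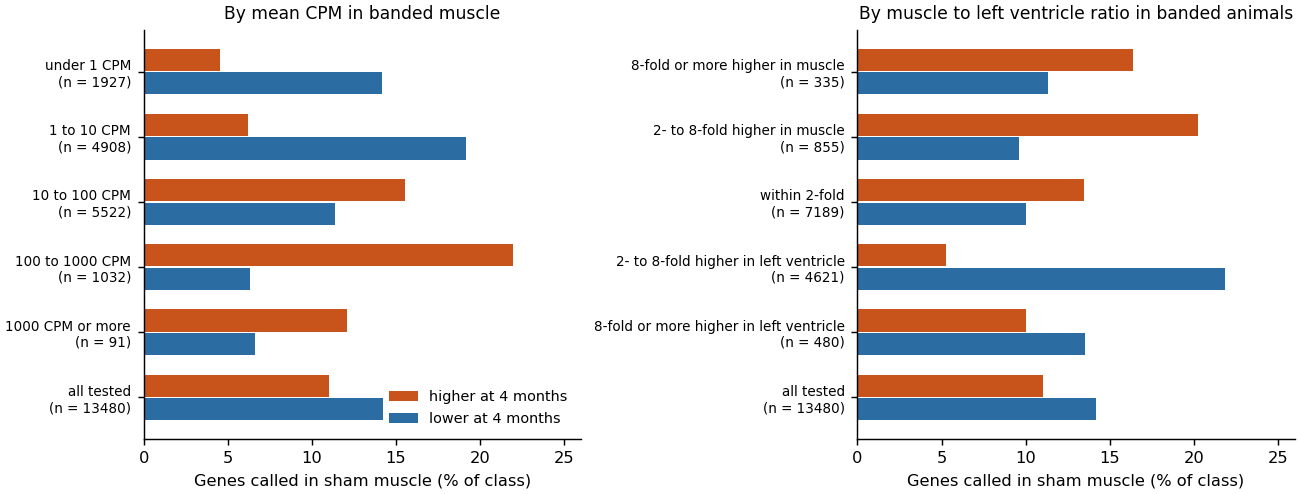
Percent of genes called higher and lower at 4 months in sham muscle, by mean CPM in banded muscle (left) and by the ratio of banded muscle to banded left ventricle (right), with the number of genes per class. Falls outnumber rises under 10 CPM and in the classes higher in left ventricle, and rises outnumber falls in the other classes.

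Banded muscle gave the same time contrast in separate libraries, so it was set beside sham muscle. In banded muscle 2623 genes were called higher (19.5% of those tested) and 3123 lower (23.2%) at 4 months. Of the 1488 genes that rose in sham muscle, 1090 rose in banded muscle too (73.3%) and 1 fell. Of the 1916 that fell in sham muscle, 1409 fell in banded muscle (73.5%) and 3 rose. Taken the other way, 41.6% of the genes that rose in banded muscle and 45.1% of those that fell there were called in that direction in sham muscle, against 11.0% and 14.2% of all genes tested. Counting direction alone, 2383 of the 2623 banded rises had a positive change in sham muscle (90.9%) and 2924 of the 3123 banded falls a negative one (93.6%), where 46.7% of all genes tested were positive. The banded rises had a median change of 0.42 in sham muscle and 0.62 in banded muscle. The banded falls had a median of -0.80 in sham muscle and -1.25 in banded muscle. Genes were called on the banded values here, and such a choice favours large banded changes.

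In the core of 1394 genes called whichever sham library was left out, 567 of the 655 rises (86.6%) and 644 of the 739 falls (87.1%) were called in the same direction in banded muscle. Genes that rose in banded muscle made up 27.5% of sham gene counts at 4 months (SD 1.04, n = 5) and 20.3% at 1 month (SD 0.600, n = 3), and the groups did not overlap. Genes that fell in banded muscle made up 3.38% of sham gene counts at 4 months (SD 0.505, n = 5) and 6.29% at 1 month (SD 0.568, n = 3), again without overlap. The difference between the sham and the banded time effect was itself tested. With edgeR 0 genes passed, 1699 had an unadjusted p under 0.05 and the smallest adjusted p was 0.249. DESeq2 called 13 genes, limma voom called 0, and edgeR called 1 without banded 1-month library 4. The median SE of this difference was 0.31 on the log2 scale over all genes tested. For ENSFCAG00000027677, chosen for its large sham change, the difference of 4.44 had an SE of 1.5 and did not pass.

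Left ventricle of the same sham groups was compared to ask whether the change with time was shared by the heart. The genes set side by side here were chosen on their sham muscle values, which favours a larger change in muscle than in left ventricle. Genes that rose in sham muscle had a median change of 0.77 there and 0.24 in sham left ventricle. Genes that fell in sham muscle had a median of -1.11 there and -0.43 in sham left ventricle. Of the risen genes, 1077 had a positive change in left ventricle and 400 a negative one, and of the fallen genes 447 had a positive and 1450 a negative one. Over all genes tested in muscle and also fitted in both tissues, 6248 were positive and 7106 negative in left ventricle. The labels do not say whether muscle and heart came from the same animals.

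The difference between the tissues was tested in a fit of all 36 libraries. The time effect differed between sham muscle and sham left ventricle in 1211 of 14579 genes (8.31%) with edgeR. It was larger in muscle in 658 (4.51%) and smaller in muscle in 553 (3.79%). This split turned under several settings. It was 503 and 649 under RLE scaling, 699 and 907 with DESeq2, 522 and 579 with a replicate block, 550 and 628 at a mean of at least 1 CPM, 1010 and 1086 without left ventricle 1-month library 2, and 389 and 390 without muscle 1-month library 2. In the 658 genes the median change was 0.63 in muscle and -0.45 in left ventricle, and in the 553 genes it was -0.59 in muscle and 0.86 in left ventricle. The signs of the tissues were opposite in 513 of the 658 genes and in 404 of the 553. These genes were chosen for a difference between the tissues, which favours opposite signs, and the share over all genes fitted was not set beside them. The total was 668 without muscle 1-month library 3 and 779 without muscle 1-month library 2. It was 722, 2096 and 745 without left ventricle 1-month libraries 1, 2 and 3.

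**Figure D5:**
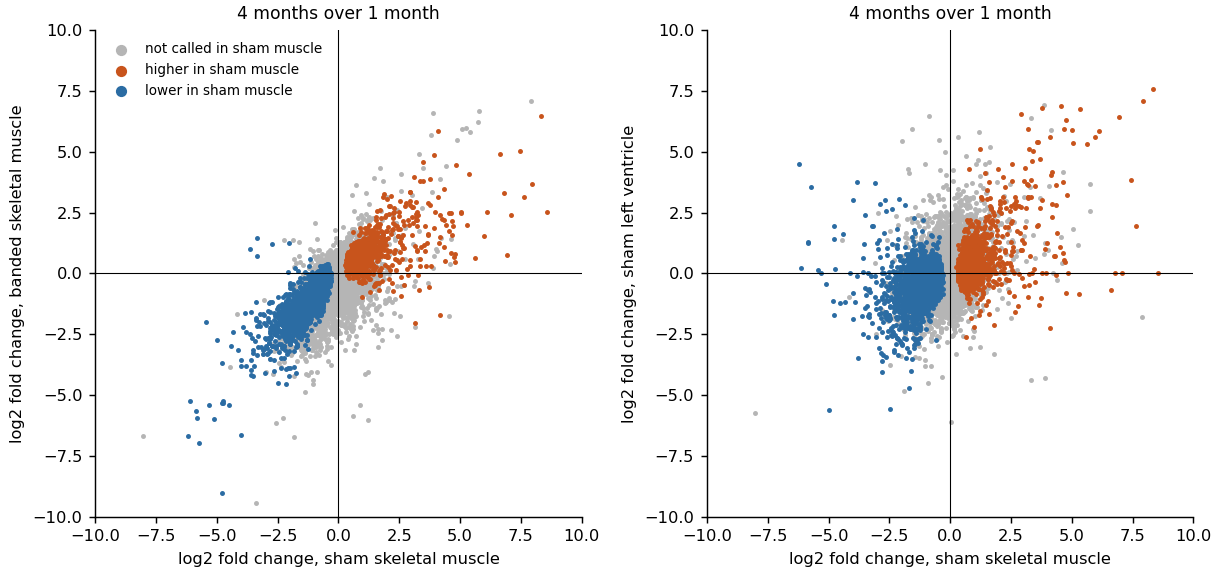
Log2 fold change of 4 months over 1 month per gene in sham muscle (horizontal) against banded muscle (left) and sham left ventricle (right). Genes called in sham muscle keep their direction in banded muscle in most cases (1437 of 1488 risen and 1828 of 1916 fallen), and are more scattered in left ventricle.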

How the data were processed

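RNA was counted per gene in 36 libraries of left ventricle and skeletal muscle, from a kit that the labels' protocols give as stranded and mRNA-selecting. The authors deposited whole-number counts, not normalized, with 5 summary lines per file that were dropped here. The tools listed in the submitters' processing notes are DESeq2 1.22.2, HTSeq 0.11.2 and HISAT2 2.1.0; a genome build is not given in the sources used here. The authors' deposited table of this comparison holds mean normalized counts (a signal on the count scale), log2 fold changes, a test statistic (a score) and p-values, per the file headers.

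edgeR 4.0.16 under R 4.3.3 was fitted to all 18 muscle libraries, with 4 group means, filterByExpr (13480 of 26681 genes kept) and TMM scaling. The difference between tissues came from all 36 libraries (14579 genes). Tests were two-sided. Genes were called at a Benjamini-Hochberg adjusted p under 0.05 over all genes tested. Fold changes are tested on the log2 scale, with an SE from the F statistic. Log2 CPM used a prior count of 2, and ratios between tissues used plain CPM with 0.1 added. The named identifiers were the 2 largest changes per direction. Fixed lists of 232 symbols in 16 groups could not be tested, since no identifier has a symbol here. The comparison, lists and rules were chosen with earlier results of these data known. Alternatives were DESeq2 1.42.0, limma 3.58.1 voom, RLE scaling, other count filters, fewer groups, a replicate block and leaving out each library. Replacing sham 4-month library 1, and leaving out 4-month libraries 1 and 5 together, were added after seeing the data. The fit was tested on simulated data. Library numbers were taken as names only in the main fits. Deviations from group means of same-numbered sham muscle libraries of 4 months and 1 month correlated at 0.116, 0.022 and -0.0768. Those of same-numbered sham muscle and left ventricle correlated at 0.230, 0.237, 0.132, 0.248 and 0.0367 at 4 months. At 1 month they correlated at 0.106, -0.0217 and 0.105. The main test between tissues took the libraries as independent, and a replicate block is given as an alternative.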

Additional observations from a re-analysis of the deposited data

Results flagged for a closer look

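A library far from the others of its group was looked for in 30 sets of 5 values with Dixon's ratio, which marks about 1 in 20 groups by chance, and 11 were marked. The CPM values were examined on a linear scale, where a single high library is marked more easily than on a log scale. Among the sham muscle libraries of 4 months, library 5 had the most genes with a count, 16201, library 5 was high for ENSFCAG00000015298 at 5.36 CPM, and library 2 was high for ENSFCAG00000027677 at 100.5 CPM. In banded muscle at 4 months, library 1 was high for 3 of the 4 identifiers, at 44.6 CPM for ENSFCAG00000000494, 16.1 CPM for ENSFCAG00000015298 and 15.5 CPM for ENSFCAG00000027677. Banded library 3 of 1 month was high for ENSFCAG00000000494 in both tissues, at 6.0 CPM in muscle and 49.2 CPM in left ventricle. In left ventricle, ENSFCAG00000015298 was high in banded library 1 of 4 months at 8.52 CPM. There ENSFCAG00000019190 was high in banded library 4 of 1 month at 302.5 CPM and in sham library 3 of 4 months at 79.7 CPM.

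The time effect in sham animals differed between muscle and left ventricle in 1211 genes by the test of the difference itself. The cause was not tested.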

How the results depend on the processing

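The call of genes in sham muscle stayed within 1.5 times of 3404 with DESeq2 (3992), limma voom (3326), RLE scaling (3420), no filter on low counts (3008, with more higher than lower there and with DESeq2), a mean of at least 1 CPM (3131), only the sham groups in the fit (3299) and 4-month libraries 1 and 5 both left out (2854). Counting only changes of at least 2-fold left 1546, by construction. A replicate block by library number across the 4 muscle groups gave 2968 genes in sham muscle, 5708 in banded muscle and 0 for their difference. That block changed no call of the 4 identifiers. For the difference between tissues, the block joined muscle and left ventricle of the same group and number, and 1101 genes were called. The pairing by number is not given in the labels, and of the 8 sham libraries 6 had a muscle and a left ventricle residual that correlated above 0.1 with the same number. Replacing sham 4-month library 1 by sham 1-month library 1 gave 0 genes in sham muscle with edgeR. With 1 library left out, counts ran from 2021 to 3719 in sham muscle, from 4945 to 5796 in banded muscle, from 0 to 1 for the difference between sham and banded and from 668 to 2096 for the difference between tissues. DESeq2 called 13 genes for the difference between sham and banded. None of these fits put a gene called higher in sham muscle among those called lower, or the reverse. The 4 identifiers kept their direction in all 27 other settings and were called in 26, except ENSFCAG00000027677, called in 25. Adjusted p-values ran from 7.75e-07 to 0.0803 for ENSFCAG00000027677, from 2.71e-07 to 0.0803 for ENSFCAG00000000494, from 2.21e-06 to 0.0813 for ENSFCAG00000019190 and from 0.000977 to 0.121 for ENSFCAG00000015298, each highest with the replaced library. Other causes of these shifts were not tested. The 1-month group has 3 libraries, and genes with few counts carry counting error besides the spread between libraries.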

Other observations

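Some genes had counts at only one time. In sham muscle 16 genes had at least 1 count in all 5 libraries of 4 months and 0 counts in all 3 libraries of 1 month, and 2 of them had more than 3 counts in every 4-month library. Those 16 include 2 genes that passed the low-count filter, and both were called higher with edgeR. In the other direction 26 genes had a count in all 3 libraries of 1 month and 0 counts in all 5 libraries of 4 months, and 1 had more than 3 counts in every 1-month library. Only 1 of these 26 passed the filter, and it was not called. The 4-month group has more libraries, each with 26787278 or more gene counts, against 27222178 or fewer at 1 month; the part of depth in these counts was not tested.

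Which 4-month libraries carried the changes most fully differed between risen and fallen genes. Among the 1488 risen genes, libraries 3 and 4 were the highest of the 5 in 399 (26.8%) and 409 (27.5%). Library 1 was the highest in 345 of them (23.2%). Among genes not called, the highest was library 3 in 14.4%, library 4 in 19.04% and library 1 in 22.3%. Library 3 was the lowest in 85 of the risen genes (5.71%), and in 16.5% of those not called. Among the 1916 fallen genes, library 1 was the lowest in 638 (33.3%) and library 5 in 153 (7.99%). In genes not called, library 1 was the lowest in 22.0% and library 5 in 22.8%.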
